A study of Homo sapiens with 6 samples.

Results

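The scavenger receptors and endocytic C-type lectins of macrophages were examined as a list of 10 genes: CD163, MSR1, MARCO, STAB1, OLR1, SCARB1, LRP1, CD209, MRC1 and CLEC10A. The rule lists them by name and uses no measured value, but the genes were chosen with earlier results of these data known. Of the 10, 9 had a row among the 17042 genes of the count table, and all 9 passed the filter on low counts that left 13405 genes for testing. MARCO, a collagenous class A scavenger receptor, is not analysed here.

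The libraries came from THP1, a human monocytic leukaemia line, whose cells became macrophage-like under the phorbol ester PMA (100 ng/mL, 24 hours). Interleukin-4 (IL-4) followed at 20 ng/mL for another 24 hours. The control group (genotype WT, 3 libraries) and the knockdown group (3 libraries, siRNA against the long noncoding RNA RP11-184M15.1, delivered with a lipid reagent before IL-4) shared both treatments. Whether the controls were transfected is not stated by the labels. There is no group without PMA or without IL-4, so these libraries carry no measure of how either agent changed a receptor. All cells derive from 1 leukaemia line, and nothing states that replicates were grown apart, so each p-value reflects only how these libraries vary, which may be technical variation.

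Library totals ran from 10450043 to 14181343 counts. The level of RP11-184M15.1 is not analysed here, so its depletion was not checked. The macrophage identity given by the labels was checked against 10 marker genes, all of which were in the table, with summed levels of 5385 to 5740 CPM (counts scaled to library size and normalized) in the controls and 5432 to 5629 CPM in the knockdown libraries. Of the 10 markers, CD14 and ITGAX were called higher and LYZ lower in knockdown, beside 1.22% and 1.61% of all genes tested. Summed markers of B cells, epithelial cells, fibroblasts and endothelial cells each came to at most 2.89 CPM in every library, from the members analysed, and the 4 T cell markers are not analysed here. Markers of undifferentiated myeloid progenitors summed to 83.0 to 91.5 CPM in the controls and 75.3 to 82.2 CPM in knockdown, and none of the 5 tested was called. Their part in the receptor results was not tested. In bulk RNA of this kind, fewer cells with a transcript and less of it per cell cannot be told apart.

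Scavenger receptors bind modified lipoproteins, spent proteins and microbial surfaces and carry them into the cell for degradation. C-type lectins of macrophages bind sugar chains through carbohydrate-recognition domains that need calcium, and many also return to the surface after releasing their cargo. In human monocyte-derived macrophages and dendritic cells, IL-4 is a known inducer of CD209, MRC1 and CLEC10A, while CD163 is best known as a marker that glucocorticoids and interleukin-10 raise.

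Per unit of transcript length, the IL-4-linked lectins stood at opposite ends of the list. CD209, also called DC-SIGN, binds mannose- and fucose-containing glycans and was the most abundant of the 9, at 73.5 ± 5.46 CPM per kilobase of merged exons in the controls and 83.2 ± 1.00 in knockdown (SD, n = 3 each). MRC1, the macrophage mannose receptor CD206, was the least abundant, at 0.34 ± 0.11 CPM per kilobase in the controls and 0.47 ± 0.13 in knockdown. The control level of CD209 was thus 217-fold that of MRC1. CLEC10A, which binds galactose and N-acetylgalactosamine, lay between them at 3.82 ± 0.84 CPM per kilobase in the controls.

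Below CD209 came 3 receptors for lipoproteins. SCARB1, the high-density lipoprotein receptor SR-BI, was at 27.0 ± 1.98 CPM per kilobase in the controls, OLR1, the oxidised low-density lipoprotein receptor LOX-1, at 22.2 ± 2.24, and LRP1, a large endocytic receptor for alpha-2-macroglobulin and apolipoprotein E, at 17.5 ± 1.60. SCARB1 and OLR1 did not overlap in the controls but did in the knockdown libraries (23.6 to 24.5 against 22.9 to 24.2 CPM per kilobase). MSR1, the class A receptor for acetylated low-density lipoprotein, followed at 6.46 ± 1.09 CPM per kilobase and overlapped CD163, the haemoglobin-haptoglobin receptor, at 6.06 ± 0.64. STAB1, a clearance receptor also known as stabilin-1, was eighth at 2.12 ± 0.13 CPM per kilobase.

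Both the overlap of SCARB1 with OLR1 and the order of MSR1 and CD163 in the knockdown libraries rested on the length used. With the longest annotated transcript as the length, SCARB1 lay above OLR1 in knockdown without overlap (33.7 ± 0.58 against 29.4 ± 0.82 CPM per kilobase). With merged exons, CD163 lay above MSR1 in the knockdown libraries (7.99 ± 0.60 against 5.85 ± 0.21 CPM per kilobase), with no overlap. With the longest transcript, MSR1 lay above CD163 in the controls (14.1 ± 2.37 against 6.63 ± 0.70) and in knockdown (12.8 ± 0.47 against 8.74 ± 0.66), because its merged exons are 2.19 times as long as its longest transcript. The ranks of the 9 control levels were the same with both lengths.

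**Figure D1:**
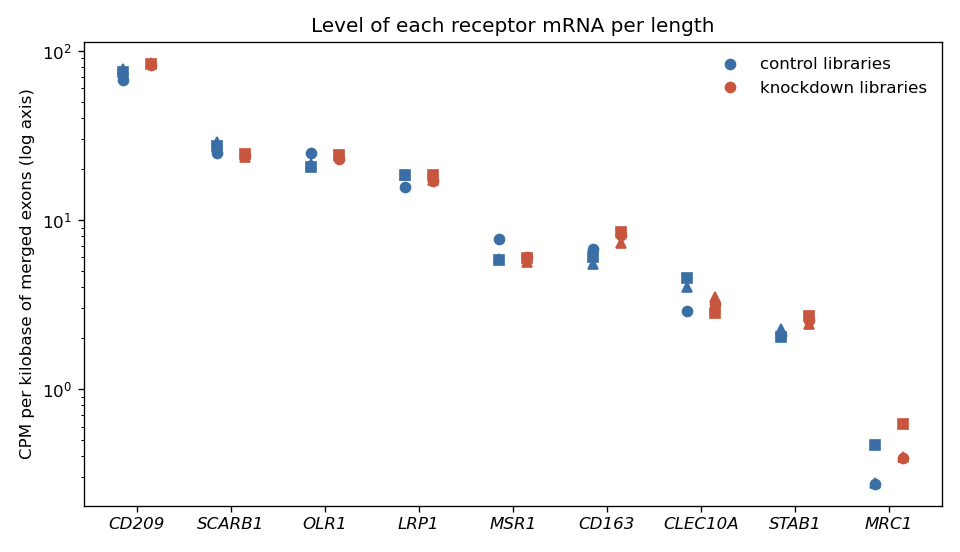
Level of each receptor mRNA in CPM per kilobase of merged exons, on a log axis, for the 3 control (blue) and 3 knockdown (red) libraries; circles, squares and triangles are replicates 1, 2 and 3. CD209 lies at 67.5 to 84.1 and MRC1 at 0.27 to 0.62, with the other 7 receptors between them.

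The comparison asks whether siRNA against RP11-184M15.1 alters these transcripts under IL-4. By edgeR's quasi-likelihood test at a threshold of 0.05 on the adjusted p, 1 of the 9 receptors rose (CD163) and none fell. DESeq2 and limma-voom also called none lower, beside 217 and 211 of all genes. Of all genes tested, edgeR called 2.83% (1.22% higher and 1.61% lower). At an unadjusted p under 0.05 in edgeR, CD163, STAB1 and CD209 lay higher and SCARB1 lower, beside 6.89% of all genes tested higher and 8.21% lower. Whether these counts, from only 9 receptors, differ from either background was not tested. The median log2 fold change of the 9 was 0.09, beside -0.0019 over all genes tested. Of the 9 values, 6 were above 0, beside 6624 of the 13405 genes tested. The control and knockdown libraries did not overlap for 4 receptors, CD163, STAB1 and CD209 (higher) and SCARB1 (lower), beside 20% of all genes tested (9.61% higher and 10.4% lower).

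CD163, which takes up haemoglobin bound to haptoglobin, was the receptor that rose. It is encoded on the minus strand of GRCh38 chromosome 12, 7470813 to 7503893 (ENSG00000177575.12). The controls held 414, 416 and 330 counts, and the libraries with siRNA held 582, 706 and 519. After normalization these were 39.1, 34.8 and 31.8 CPM against 47.1, 49.5 and 42.6 CPM. Every knockdown library lay above every control, the nearest pair being knockdown replicate 3 and control replicate 1. The mean went from 35.2 ± 3.69 to 46.4 ± 3.51 CPM (SD, n = 3 for both), a rise of 31.9% (log2 fold change 0.40 ± 0.08 SE, 95% interval 0.23 to 0.57, edgeR adjusted p = 0.0127). The call was lost when control replicate 2, or replicate 1 or 2 of the knockdown, was left out (edgeR adjusted p = 0.0796, 0.0535 and 0.119), while the log2 fold change stayed between 0.34 and 0.48 with any 1 library left out. CD163L1, a related receptor whose annotated gene overlaps CD163 on the same strand, was at 13.8 ± 0.66 and 13.6 ± 1.41 CPM, with a log2 fold change of -0.03 ± 0.11 SE. Reads that the 2 genes share could have been split between them.

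STAB1 clears acetylated lipoproteins, the matrix protein SPARC and apoptotic cells, and it also traffics between endosomes and the Golgi. Its levels were 22.1, 21.4 and 24.0 CPM in the controls and 27.1, 28.6 and 25.6 CPM in knockdown (234, 255 and 249 against 335, 407 and 312 counts). All knockdown libraries were above all controls. The log2 fold change was 0.27 ± 0.08 SE (95% interval 0.10 to 0.45) and did not pass after adjustment (edgeR adjusted p = 0.0910, and 0.0540 to 0.337 with any 1 library left out). On GRCh38 chromosome 3 (52495338 to 52524495, plus strand) it overlaps NT5DC2 on the opposite strand. No source used here says whether counting kept strand, which also bears on the other opposite-strand overlaps below. NT5DC2 had a log2 fold change of -0.10 ± 0.05 SE.

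CD209 was the abundant lectin and varied little among the knockdown libraries. The controls held 298, 330 and 345 CPM and the knockdown libraries 362, 368 and 371 CPM (3151, 3939 and 3584 against 4474, 5253 and 4518 counts). The 3 knockdown values sat close together and above all controls, of which replicate 1 was the lowest. The log2 fold change was 0.18 ± 0.05 SE (95% interval 0.07 to 0.29), a fitted difference of 13.3%, with an edgeR adjusted p of 0.0792. It passed in DESeq2's Wald test (adjusted p = 0.0329), with the replicate number as a block in edgeR (adjusted p = 0.0367) and without control replicate 3 (edgeR adjusted p = 0.0167). It did not pass in limma-voom (adjusted p = 0.0732), nor without any 1 library other than control replicate 3 (edgeR adjusted p = 0.0981 to 0.268). CD209 is on the minus strand of GRCh38 chromosome 19, 7739994 to 7747564, and shares much sequence with its neighbour CLEC4M, so its counts are less certain. CLEC4M was at 0.91 ± 0.11 CPM in the controls and 1.06 ± 0.24 CPM in knockdown, with 9 to 16 counts a library.

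Upstream sequence of the 3 receptors that lay higher in every knockdown library is shown because they shared that pattern. Each run is the 250 bases before the RefSeq start site (GRCh38.p14), 5′ to 3′ on the gene's strand: chr12:7503778-7504027 (minus) for CD163, chr3:52495088-52495337 (plus) for STAB1 and chr19:7747535-7747784 (minus) for CD209. The annotated genes of CD163 and CD209 reach to 7503893 and 7747564, so part of the CD163 window and part of the CD209 window lie inside the gene. Capitals mark the PU.1-type word GAGGAA or its reverse complement TTCCTC. PU.1 is a transcription factor that drives myeloid genes.
CD163: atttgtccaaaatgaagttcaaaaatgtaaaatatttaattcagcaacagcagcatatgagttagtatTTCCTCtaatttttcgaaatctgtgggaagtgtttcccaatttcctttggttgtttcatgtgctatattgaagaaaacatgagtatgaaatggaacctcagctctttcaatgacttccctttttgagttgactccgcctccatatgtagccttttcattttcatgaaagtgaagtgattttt
STAB1: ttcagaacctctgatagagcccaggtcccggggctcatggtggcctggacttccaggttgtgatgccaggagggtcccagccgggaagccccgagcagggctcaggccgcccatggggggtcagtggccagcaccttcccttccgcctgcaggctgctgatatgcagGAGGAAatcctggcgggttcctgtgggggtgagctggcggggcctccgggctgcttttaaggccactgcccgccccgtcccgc
CD209: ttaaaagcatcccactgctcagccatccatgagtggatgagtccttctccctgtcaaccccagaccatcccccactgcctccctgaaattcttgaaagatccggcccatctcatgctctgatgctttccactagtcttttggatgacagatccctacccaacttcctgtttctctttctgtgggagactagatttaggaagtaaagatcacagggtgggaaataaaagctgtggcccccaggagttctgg
The word occurred once in CD163 (182 to 177 bases before the start, as TTCCTC) and once in STAB1 (83 to 78 bases before it, as GAGGAA), and not in the CD209 window. Other forms of the PU.1 site were not searched for, so its absence there covers this word alone. Over all 35116 RefSeq windows of this length, 23.6% held it on either strand. The STAT6 word, TTC and GAA with any 4 bases between them (5.38% of windows), and the AP-1 word TGANTCA (6.57%), which read the same on both strands, occurred in none of the 3, nor in the window of LRP1, and no matches overlapped. GC content differed widely, at 33.6% in CD163, 49.6% in CD209 and 67.6% in both STAB1 and LRP1. The match of a word describes these letters and not a bound site.

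SCARB1, which mediates selective uptake of cholesteryl ester from high-density lipoprotein, was the receptor with all knockdown libraries below the controls. It had 192, 212 and 222 CPM in the controls and 186, 189 and 183 CPM in knockdown. The gap between the groups was narrow, since control replicate 1 was only just above knockdown replicate 2. The log2 fold change was -0.16 ± 0.05 SE (95% interval -0.28 to -0.05, edgeR adjusted p = 0.119). Without control replicate 1 it was -0.22 and passed (edgeR adjusted p = 0.00501). Without any 1 other library it was -0.18 to -0.12 and did not pass (edgeR adjusted p = 0.258 to 0.354). No other annotated gene overlaps SCARB1 on GRCh38 chromosome 12 (124776856 to 124882668, minus strand).

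The other lipoprotein receptors overlapped between the groups. LRP1 had 327, 385 and 384 CPM in the controls and 354, 385 and 360 CPM in knockdown. Its log2 fold change of 0.0042 ± 0.059 SE had a 95% interval of -0.12 to 0.13 (edgeR adjusted p = 0.985), and its sign turned to -0.07 without control replicate 1 and -0.03 without knockdown replicate 2. LRP1 lies on GRCh38 chromosome 12 (57128493 to 57213351, plus strand), where it overlaps STAT6, the transcription factor of IL-4 signalling, on the opposite strand. STAT6 had a log2 fold change of -0.06 ± 0.04 SE and was not called.

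OLR1 had 75.8, 62.9 and 65.2 CPM in the controls and 70.1, 73.9 and 73.4 CPM in knockdown. Control replicate 1 was the highest of the 6 libraries and the other 2 controls the lowest. The log2 fold change was 0.09 ± 0.07 SE (95% interval -0.05 to 0.24, edgeR adjusted p = 0.556), and 0.18 without control replicate 1 (adjusted p = 0.0859). OLR1 (GRCh38 chromosome 12, 10158301 to 10172138, minus strand) overlaps TMEM52B on the opposite strand, which was at 11.4 ± 0.45 and 13.05 ± 1.34 CPM.

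MSR1, on GRCh38 chromosome 8 (16107878 to 16567490, minus strand), had 60.3, 45.4 and 45.8 CPM in the controls and 46.8, 46.5 and 43.8 CPM in knockdown. Control replicate 1 alone lay above the rest. The log2 fold change was -0.14 ± 0.09 SE (95% interval -0.33 to 0.05, edgeR adjusted p = 0.507) and came to 0.0042 without control replicate 1 (adjusted p = 0.988). Among the 9 receptors, control replicate 1 was the control farthest from the other 2 for 7, and it was so for 40.4% of all genes tested. That library had the lowest mitochondrial share of counts among the controls (2.31%, against 2.75% and 3.01%, and 2.39% to 2.48% in knockdown). The part of this in the receptor values was not tested beyond leaving the library out.

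The remaining 2 IL-4-linked lectins were measured with less precision. MRC1, which recycles between the surface and endosomes and clears mannosylated glycoproteins, had only 15, 29 and 15 counts in the controls and 25, 46 and 25 in knockdown, or 1.42, 2.43 and 1.44 against 2.02, 3.23 and 2.05 CPM. Replicate 2 was the highest library in each group, and the groups overlapped. The log2 fold change of 0.46 ± 0.30 SE had a 95% interval from -0.18 to 1.10 (edgeR adjusted p = 0.513), which holds both no change and a log2 fold change of 1. Leaving out 1 library moved it between 0.19 (without knockdown replicate 2) and 0.78 (without control replicate 2). The gene is on GRCh38 chromosome 10, 17809344 to 17911170, plus strand.

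CLEC10A had 7.18, 11.2 and 9.91 CPM in the controls and 7.86, 6.94 and 8.62 CPM in knockdown, from 76 to 134 counts a library. Control replicate 1 lay among the knockdown libraries and the other 2 controls above them. Its log2 fold change was -0.29 ± 0.16 SE (95% interval -0.62 to 0.05, edgeR adjusted p = 0.415), and ran from -0.45 without control replicate 1 to -0.13 without control replicate 2. It lies on GRCh38 chromosome 17, 7074537 to 7080307, minus strand, with no overlapping gene.

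**Figure D2:**
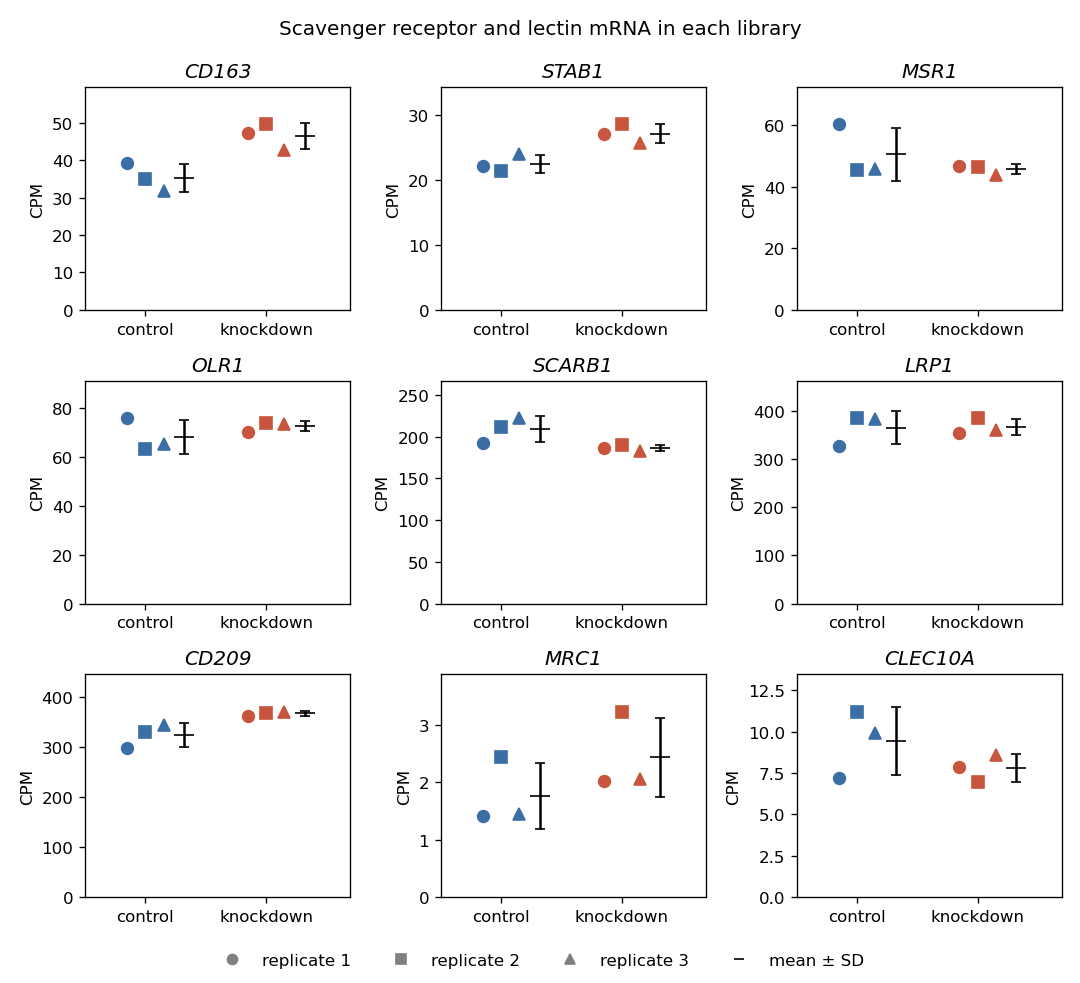
CPM of each of the 9 receptors in the 3 control (blue) and 3 knockdown (red) libraries, with every axis starting at 0; marker shapes are replicate numbers and the black bar is the mean ± SD (n = 3). CD163, STAB1 and CD209 have all knockdown libraries above the controls, SCARB1 has them below, and the MSR1 control of replicate 1 (60.3 CPM) stands above the other 5 libraries.

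**Figure D3:**
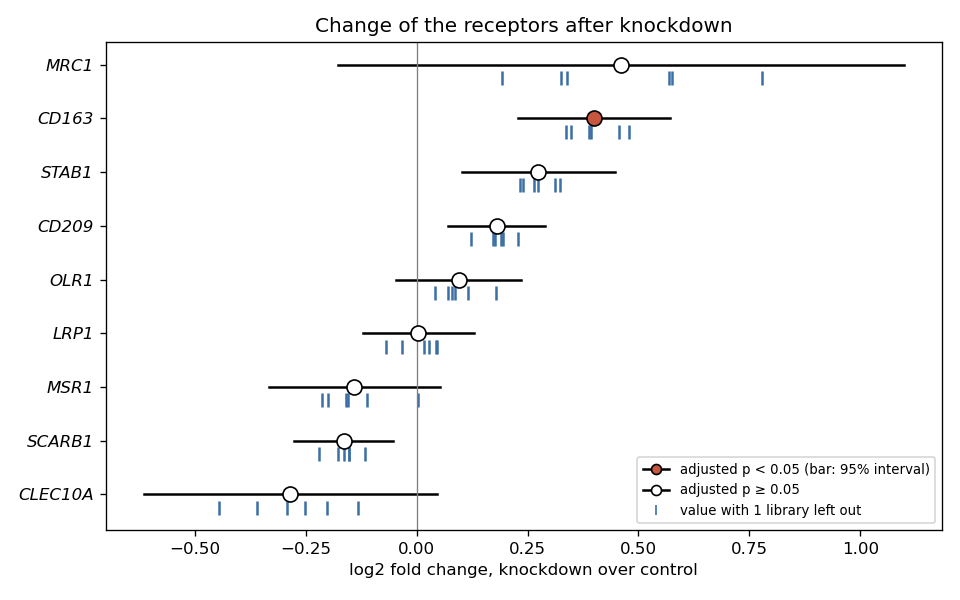
Log2 fold change of each receptor, knockdown over control, with its 95% interval (black bar) and the values found with 1 library left out (blue ticks). CD163 is filled as the receptor with an adjusted p under 0.05; the ticks of MSR1 and LRP1 reach both sides of 0, and the interval of MRC1 runs from -0.18 to 1.10.

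Other receptors of the same kinds were read from the same fits. Of 11 other scavenger receptors tested, none was called by edgeR, DESeq2 or limma-voom (median log2 fold change -0.0018). Of all genes tested, edgeR called 2.83%. At an unadjusted p under 0.05 in edgeR, 2 were higher and 1 lower, beside 6.89% and 8.21% of all genes tested. CD36, a fatty acid and oxidised lipoprotein receptor, was at 506 and 509 CPM and CD68, a lysosomal glycoprotein, at 1131 and 1049 CPM in control and knockdown (log2 fold change 0.01 and -0.11). CXCL16, a membrane chemokine that also binds oxidised lipoprotein, had a log2 fold change of 0.32 ± 0.09 SE (edgeR adjusted p = 0.0725, and 0.0486 without control replicate 1). This gene was chosen after its values were seen.

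Of 15 other C-type lectins and lectin receptors tested, none was called by edgeR, DESeq2 or limma-voom, beside 2.83% of all genes tested in edgeR. At an unadjusted p under 0.05 in edgeR, 1 was higher and 1 lower, beside the same 6.89% and 8.21%. Their median log2 fold change was 0.14, with 10 of the 15 above 0, beside 6624 of the 13405 genes tested. The most abundant were CLEC11A, a secreted growth factor with a lectin-like domain (166 and 170 CPM in control and knockdown, log2 fold change 0.04), and MRC2, a collagen-binding relative of MRC1 (136 and 142 CPM, 0.05). FCER2, the low-affinity IgE receptor CD23 and another lectin that IL-4 induces, was chosen after its values were seen. It had 14.9, 14.6 and 18.6 CPM in the controls and 20.9, 20.1 and 19.9 CPM in knockdown (log2 fold change 0.35 ± 0.10 SE, edgeR adjusted p = 0.0853, and 0.0141 without control replicate 3).

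Among relatives of LRP1, 1 of 11 tested genes (SORL1) was called and it fell, beside 1.61% of all genes tested. At an unadjusted p under 0.05 in edgeR, 4 of the 11 were higher and 1 lower, beside 6.89% and 8.21% of all genes tested. SORL1, a sorting receptor between the Golgi and endosomes, had 12.4, 13.5 and 16.3 CPM in the controls and 10.3, 10.2 and 9.11 CPM in knockdown. Its log2 fold change was -0.51 ± 0.12 SE, at an edgeR adjusted p of 0.0319. Its adjusted p was 0.0716 to 0.149 without any 1 library other than control replicate 1. LRP10 (417 and 433 CPM) and LRP12 (207 and 216 CPM) had log2 fold changes of 0.05 and 0.06, and the median of the 11 was 0.10. LRP8, chosen after its values were seen, had a log2 fold change of 0.18 (edgeR adjusted p = 0.0553) and passed with upper-quartile normalization (0.0496) and without control replicate 1 (0.0391). None of 15 tested genes of clathrin-coated vesicles, adaptors and sheddases was called by edgeR, DESeq2 or limma-voom (median 0.01), beside 2.83% of all genes in edgeR. Of these 15, 3 were lower and none higher at an unadjusted p under 0.05 in edgeR, beside 8.21% and 6.89% of all genes tested. The adaptor subunit AP2A2, chosen after its values were seen, passed without control replicate 1 (log2 fold change -0.19, adjusted p = 0.0148). The most abundant were the heavy chain CLTC (817 and 827 CPM in control and knockdown) and the clathrin assembly protein PICALM (646 and 664 CPM). ADAM17, which sheds CD163 from the surface, was chosen after its values were seen and had a log2 fold change of 0.01 ± 0.05 SE.

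The genes that handle the haemoglobin cargo of CD163 showed 1 call in 11 (FLVCR1), beside 2.83% of all genes tested. At an unadjusted p under 0.05 in edgeR, 3 of them were higher and 2 lower, beside 6.89% and 8.21% of all genes tested. FLVCR1, a haem exporter of the plasma membrane, had 20.3, 19.0 and 26.1 CPM in the controls and 29.3, 27.8 and 29.2 CPM in knockdown. It rose by 0.40 ± 0.10 SE on the log2 scale, at an edgeR adjusted p of 0.0432. The call was lost with no filter on low counts (adjusted p = 0.0559) and without any 1 library other than control replicate 3 (0.0702 to 0.226). HMOX1, the haem oxygenase that opens the haem ring, was chosen after its values were seen. It had a log2 fold change of -0.10 ± 0.06 SE, and the ferritin chains FTL and FTH1 of -0.15 and -0.04, none called. FTL passed with the replicate number as a block (adjusted p = 0.0463) and without control replicate 3 (adjusted p = 0.00758). The transferrin receptor TFRC, chosen after its values were seen, had a log2 fold change of 0.15 (edgeR adjusted p = 0.0809) and passed in DESeq2 (0.0297), with the block (0.0495) and without control replicates 1 (0.0382) or 3 (0.0435).

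Of genes that IL-4 controls through STAT6, the receptors aside, the list had 5 of 15 tested members lower and none higher, with a median of -0.20. Of all genes tested, 1.61% were called lower and 1.22% higher. At an unadjusted p under 0.05 in edgeR, 8 of the 15 were lower and 1 higher, beside 8.21% and 6.89% of all genes tested. The chemokines CCL22 (log2 fold change -0.65), CCL17 (-0.51) and CCL26 (-0.79), the fatty-acid-binding protein FABP4 (-0.37) and the transglutaminase TGM2 (-0.18) made up the 5 called after adjustment. With 1 library left out, 2 to 7 members were lower, beside 84 to 328 of all genes tested. The number higher was 0 to 1, beside 55 to 214 of all genes, the 1 being FCER2 without control replicate 3 (edgeR adjusted p = 0.0141). CCL22 and CCL17 were the 2 that passed when control replicate 2, or replicate 1 or 2 of the knockdown, was left out. DESeq2 called 3 members lower, beside 217 of all genes. The values of CD209 (0.18) and MRC1 (0.46) lay on the other side of 0 from these 5, and that of CLEC10A (-0.29) on the same side, though none of the 3 lectins was called. A difference between these lectins and the 5 targets was not tested. ALOX15, a lipoxygenase that IL-4 strongly induces, was at 147 and 137 CPM (log2 fold change -0.09, not called).

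Of 13 transcription factors linked to these receptors, 1 (NFE2L2) fell, beside 1.61% of all genes tested. At an unadjusted p under 0.05 in edgeR, 1 of the 13 was higher and 2 lower, beside 6.89% and 8.21% of all genes tested. NFE2L2, the regulator of antioxidant genes known as NRF2, had 509, 472 and 451 CPM in the controls and 405, 394 and 391 CPM in knockdown. Its log2 fold change was -0.27 ± 0.05 SE, at an edgeR adjusted p of 0.00573. It had adjusted p of 0.0559 and 0.0610 without knockdown replicates 2 and 3. SPI1, which encodes PU.1, had a log2 fold change of -0.04 and CEBPA of 0.01.

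**Figure D4:**
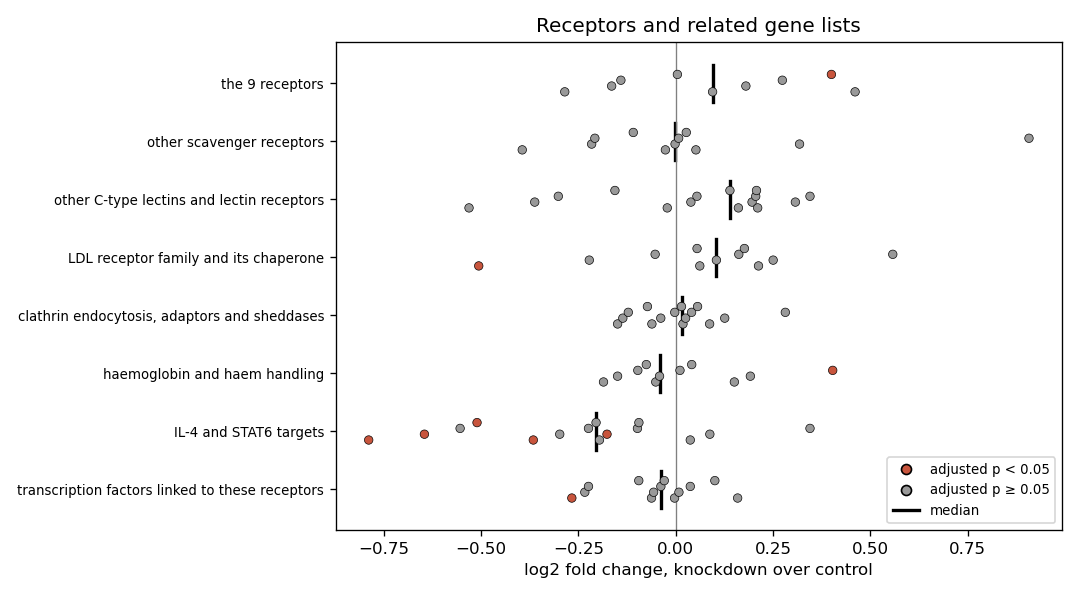
Log2 fold change (knockdown over control) of every tested gene in the 9 receptors and 7 related lists, 1 point a gene, red where the adjusted p was under 0.05; black lines are medians. The red points are CD163 among the receptors, SORL1, FLVCR1 and NFE2L2 in 3 of the lists, and 5 genes left of 0 among the IL-4 and STAT6 targets.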

How the data were processed

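Polyadenylated RNA of 3 control and 3 knockdown libraries, grouped by sample title, was analysed. The submitters' processing notes name Salmon 0.11.2, DESeq2 and hg38 without roles. Values in the deposited table are expected counts for each gene symbol, all whole, with a lowest row sum of 10. Salmon's counts are estimates that split reads between similar genes. Annotation, rounding and strand use: not given in the sources used here.

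Counts were tested as deposited by the quasi-likelihood test of edgeR 4.0.16 after filterByExpr, with TMM factors and group as the sole term (two-sided, Benjamini-Hochberg over all 13405 genes tested, threshold 0.05). CPM use the TMM factors. Standard errors are the log2 fold change over the square root of F, an approximation, and 95% intervals use the t distribution of the fit. Levels per kilobase divide CPM by merged exon length from GENCODE 29 (GRCh38). Promoter windows from RefSeq were searched for 4 of the 9 receptors, and any window on chromosome 8, where MSR1 lies, was left out.

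The receptors, the 7 related lists and the markers were chosen with earlier results of these data known. Named genes are the receptors and, per list, up to 4 called genes (smallest p) and the 2 most abundant others. Genes that overlap or closely resemble a receptor are given beside it, and others outside the rule are said to be chosen after their values were seen.

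The script was tested on simulated data, 5 draws of this comparison with 200 of 13405 genes altered, and missed some at every fold tried, more than it called at the smallest, 1.25-fold. Within groups no 2 libraries were the same (chi-square over its degrees of freedom, 1.90 to 6.79). Alternatives were RLE and upper-quartile normalization, no filter, at least 1 CPM in at least 3 libraries, DESeq2 1.42.0, limma-voom 3.58.1, a replicate block, leaving out each library, and the longest transcript as length. R 4.3.3 and Python 3.11.15 were used.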

Additional observations from a re-analysis of the deposited data

How the results depend on the processing

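Of 117 receptor log2 fold changes recomputed (9 receptors under 13 settings), 107 kept their direction and their side of the threshold, 2 of them (MRC1 and CLEC10A in DESeq2) by direction alone for want of an adjusted p. The number of receptors that rose was 2 in DESeq2 and 2 with the replicate number as a block, CD209 joining CD163. Of all genes, 143 and 200 rose in these 2 settings. With 1 library left out, 0 to 2 receptors rose and 0 to 1 fell (SCARB1 without control replicate 1). With 1 library left out, 139 to 542 of all genes passed, 55 to 214 higher and 84 to 328 lower. Among log2 fold changes that were not called, some changed sign as libraries were left out in turn: MSR1 ran from -0.21 to 0.0042, LRP1 from -0.069 to 0.046, CD36 from -0.026 to 0.081, CLTC from -0.014 to 0.061 and CEBPA from -0.024 to 0.060. FABP4 did not pass in DESeq2 (adjusted p = 0.0959), nor TGM2 with RLE (0.0502) or upper-quartile (0.0584) normalization. The transcription factor list had 2 lower without control replicate 1, beside 328 of all genes. It had 0 lower without knockdown replicates 2 or 3, beside 84 and 96 of all genes. The cause was not tested. The replicate numbers are shared only as numbers, so the block is only an alternative. Same-numbered libraries had correlated deviations of 0.07, 0.09 and 0.05, each the highest of its library but all under 0.1. Control and knockdown libraries with different numbers had -0.057 to -0.009. Whether same-numbered libraries are paired was not tested. With the block, 488 of all genes passed, against 379 without it. DESeq2 also gave no adjusted p for CCL26. The counts of MRC1, 15 to 46 a library, limit what can be said of it.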
